A study of Mus musculus with 2 samples.

Results

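Cd28, Ctla4 and Icos form a cluster of 3 co-stimulatory receptor genes on mouse chromosome 1, and the accessible DNA around them was described in thymus. They are 3 of 21755 protein-coding genes on the autosomes and chromosome X. The locus was taken as the stretch from 50 kb before the Cd28 gene model to 50 kb after the Icos gene model, chr1:60666800-61050320 in the mm10 build, a length of 383.5 kb. It held 57 of 127552 peaks in replicate 1 and 27 of 67270 in replicate 2. DNase-seq, which maps DNA that the nuclease DNase I can cut in chromatin, had been performed on whole female thymus tissue. The strain was B6CASTF1/J, a first-generation hybrid, and the age was 25 days. There were 2 libraries, labelled as biological replicates 1 and 2 of a single group, so the design holds no contrast and no test between groups was made. Whole thymus is a mixture of cell types, and fewer cells with an open site and less cutting per cell cannot be told apart. The files use the C57BL/6J-based mm10 reference and do not separate the CAST/EiJ from the C57BL/6J allele.

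CD28 is the receptor through which a T cell receives the second signal that accompanies antigen recognition. It binds CD80 and CD86 on antigen-presenting cells and recruits phosphoinositide 3-kinase and adaptor proteins to amplify activation. CTLA-4 binds the same ligands with higher affinity and restrains the response. It is carried constitutively by regulatory T cells and is induced in others after activation. ICOS, which binds ICOS ligand, appears after activation and supports follicular helper and regulatory T cells. In the thymus, CD28 is present on developing thymocytes, and CD28 signals contribute to the formation of regulatory T cells.

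All 3 genes lie on the plus strand in the order Cd28, Ctla4, Icos. Cd28 (ENSMUSG00000026012) is annotated in GENCODE M21 at chr1:60716800-60773359. Its main coding transcript, Cd28-201, has 4 exons and starts at 60746358, which is 29558 bp after the start of the gene model. Ctla4 (ENSMUSG00000026011) is annotated at chr1:60887000-60915832, and its main coding transcript Ctla4-201, also of 4 exons, starts at 60909025, which is 22025 bp into the model. In both genes the earlier start belongs to a processed transcript without a coding sequence. Icos (ENSMUSG00000026009) is annotated at chr1:60977927-61000320, and its main coding transcript Icos-202 has 5 exons and starts at the first base of the model. The nearest protein-coding genes outside the locus are Raph1, which ends at 60567104, and Pard3b, which starts at 61638824. A pair of long intergenic non-coding RNA genes, Gm11579 on the minus strand and 2310016D23Rik on the plus strand, lie between Cd28 and Ctla4.

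The sequences of the 5 shared sites outside the member promoters with the highest mean density percentile show where the footprints of the 2 libraries coincide. A footprint is a short stretch inside accessible DNA that is protected from cutting, as called by the authors. Peaks of the 2 libraries that overlapped were merged into sites and numbered from 1 to 57 along the chromosome. All sequences are of the plus strand of GRCm38.p6 (mm10) from RefSeq, so they are of the reference strain, and capitals mark bases inside footprints of both libraries. Site 13 (chr1:60758281-60758580) lies in intron 1 of Cd28, 12.07 kb after the coding start. Site 19 (chr1:60777001-60777260) lies in Gm11579, and site 26 (chr1:60781761-60781980) spans the 5′ end of Gm11579 inside 2310016D23Rik. Site 35 (chr1:60823041-60823220) is intergenic, and site 46 (chr1:60910901-60911100) lies in intron 1 of Ctla4.
site 13: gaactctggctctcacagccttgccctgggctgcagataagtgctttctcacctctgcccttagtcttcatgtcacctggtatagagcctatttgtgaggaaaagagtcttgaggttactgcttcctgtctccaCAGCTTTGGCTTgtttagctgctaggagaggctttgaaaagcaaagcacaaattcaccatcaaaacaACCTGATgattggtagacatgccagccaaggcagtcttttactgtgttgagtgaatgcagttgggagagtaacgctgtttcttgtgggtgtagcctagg
site 19: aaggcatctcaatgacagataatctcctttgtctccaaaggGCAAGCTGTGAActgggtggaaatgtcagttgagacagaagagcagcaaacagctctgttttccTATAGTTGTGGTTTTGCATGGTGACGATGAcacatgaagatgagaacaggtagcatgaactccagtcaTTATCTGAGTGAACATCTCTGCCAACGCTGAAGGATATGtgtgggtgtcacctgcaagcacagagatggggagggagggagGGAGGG
site 26: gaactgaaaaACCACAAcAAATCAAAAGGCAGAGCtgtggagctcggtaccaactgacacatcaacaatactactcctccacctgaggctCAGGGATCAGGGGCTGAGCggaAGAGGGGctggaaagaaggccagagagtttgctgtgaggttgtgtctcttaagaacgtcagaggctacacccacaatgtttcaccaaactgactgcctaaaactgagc
site 35: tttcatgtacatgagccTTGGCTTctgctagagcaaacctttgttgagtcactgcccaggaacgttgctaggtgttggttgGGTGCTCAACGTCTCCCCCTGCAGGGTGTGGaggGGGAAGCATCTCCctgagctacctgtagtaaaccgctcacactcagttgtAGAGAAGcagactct
site 46: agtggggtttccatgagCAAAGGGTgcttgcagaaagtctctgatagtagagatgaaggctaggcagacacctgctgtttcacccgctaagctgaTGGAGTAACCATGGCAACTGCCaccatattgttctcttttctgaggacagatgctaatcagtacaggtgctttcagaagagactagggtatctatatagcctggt

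Bases footprinted in both libraries numbered 19 of 300 at site 13, 87 of 260 at site 19, 50 of 220 at site 26, 58 of 180 at site 35 and 30 of 200 at site 46. The RUNX core TGTGGT stands within the second capital run of site 19, and its reverse complement ACCACA opens the first capital run of site 26. RUNX factors are regulators of T cell development.

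Of the members, Ctla4 alone was matched in the RefSeq promoter table (GRCm38.p6). Its promoter, chr1:60908845-60909054 on the plus strand, is shown from 180 bases before the coding transcript's start to the first 30 bases after it, because the peak there covers the start. Capitals mark letters of motif matches, and no base of this stretch was inside footprints of both libraries.
Ctla4 promoter: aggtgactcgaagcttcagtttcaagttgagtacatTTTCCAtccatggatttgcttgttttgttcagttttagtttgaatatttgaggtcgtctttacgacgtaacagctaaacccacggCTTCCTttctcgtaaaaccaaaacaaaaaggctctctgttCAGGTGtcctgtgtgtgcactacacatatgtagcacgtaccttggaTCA

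Positions are given from the start base, counted as 0. The matches in the full 300 bases of the table entry were TTTCCA (the reverse complement of the NFAT core TGGAAA) at -144, CTTCCT (reverse complement of the ETS core AGGAAG) at -59 and CAGGTG (reverse complement of the E-box CACCTG) at -19. A TCAAAG (reverse complement of the TCF/LEF core CTTTGA) began at 27, and TATAAA, the TATA box, began at 40, downstream of the annotated start. Among 32851 promoters of the same length in that table, 21.4% held the NFAT core, 35.4% the ETS core AGGAAG, 20.2% the E-box CACCTG, 16% the TCF/LEF core and 13.6% TATAAA on either strand. A match describes letters only. GC content was 42% in the Ctla4 entry against a median of 52.7% over all entries. The entry held 8 CpG dinucleotides, against a median of 7.

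Both libraries had the same broad landscape, with more sites called in replicate 1. Replicate 1 held 57 peaks and replicate 2 held 27, a mean of 42 ± 21.2 (SD, n = 2). This was 14.9 and 7.04 peaks per 100 kb, against 4.84 and 2.55 over the genome. The ratio to the genome was 3.07 in replicate 1 and 2.76 in replicate 2, a mean of 2.91 ± 0.22 (SD, n = 2), so it differed less between the libraries than the counts did. Of 6857 non-overlapping windows of the same length, 93.1% had fewer peaks in replicate 1 and 88.7% in replicate 2. By the same flank rule, the Cd3e, Cd3d and Cd3g locus had 31.4 and 20.7 peaks per 100 kb, the Il2ra locus 25.9 and 11.3, and the Foxp3 locus 8.22 and 5.76. The co-stimulatory cluster lay between Il2ra and Foxp3 in both libraries. With their flanks these loci are 140.1, 150.4 and 121.6 kb long, against 383.5 kb here. The flanks therefore make up more of each of them than of the co-stimulatory cluster.

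**Figure D1:**
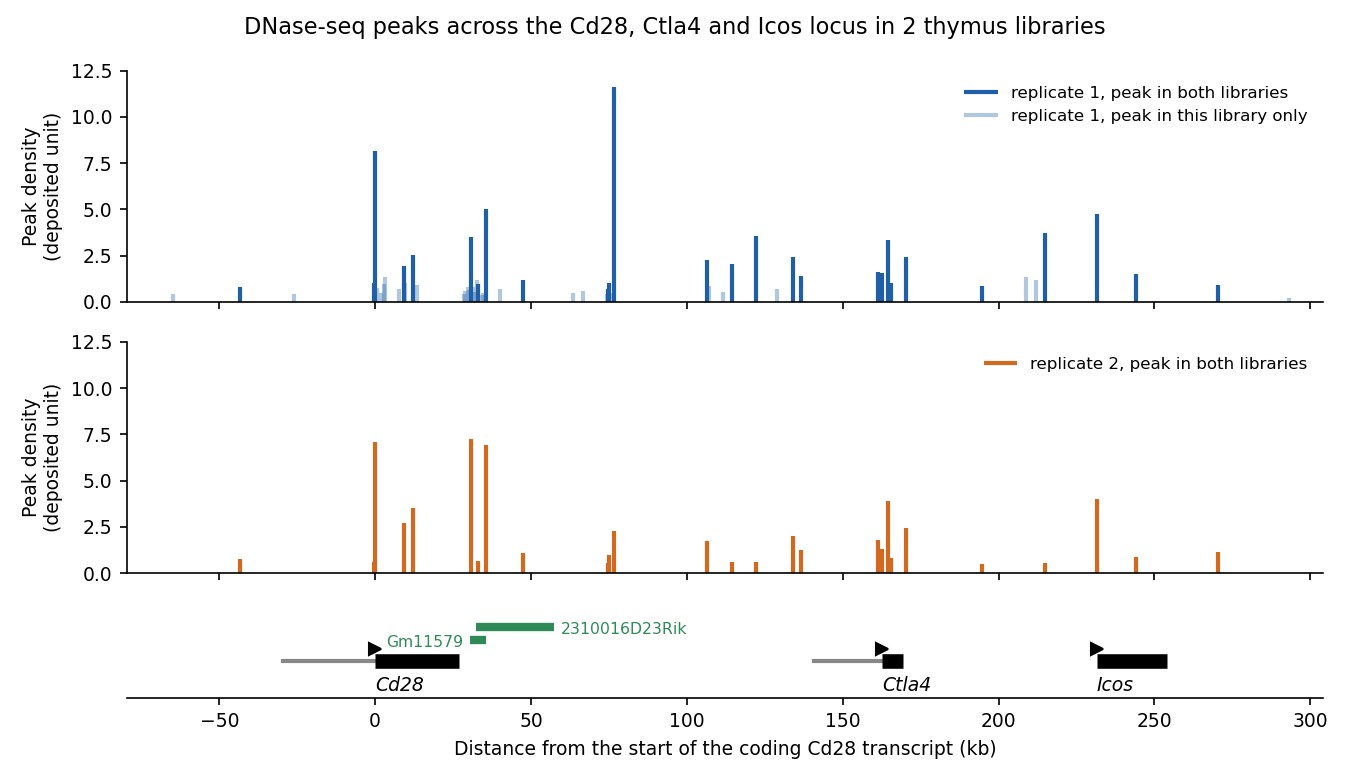
Density of each deposited peak (vertical axis, the authors' unit) against distance in kb from the start of the coding Cd28 transcript, with replicate 1 above and replicate 2 below. Pale lines are peaks called in that library only, black boxes run from the coding start to the gene's end, grey lines are the earlier part of each gene model, and green bars are non-coding genes. The densest peak of replicate 1, 11.59 at 76.77 kb, has a density of 2.285 in replicate 2.

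All 27 sites of replicate 2 were also called in replicate 1, while 30 sites were called in replicate 1 alone. The shared share was 47.4% of the replicate 1 peaks, against 46.9% over the genome, and 100% of the replicate 2 peaks, against 88.8% over the genome. Sites found in replicate 1 alone had densities from 0.238 to 1.36 with a median of 0.624, where the 27 shared sites had a median of 1.95 in that library. Their densities overlapped, since the weakest shared site was at 0.704 in replicate 1. Footprints of replicate 1 touched 26 of the 30, and replicate 2 had no footprint in any of them. In replicate 2, 3 of the 30 held bases with a false discovery rate below 0.05, and 0 of 30 held a base at 0.001 or less.

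Accessible sites were most frequent from Cd28 to Ctla4 and least frequent in the flanks. The interval between Cd28 and Ctla4, 113.6 kb long, held 29 peaks in replicate 1 and 12 in replicate 2, or 25.5 and 10.6 per 100 kb. The Cd28 gene model held 12 and 4 peaks, and the Ctla4 gene model 5 and 4. Between Ctla4 and Icos there were 6 and 4, of which 1 in each library was the Icos promoter peak. The Icos gene model held 1 peak in each library, or 4.47 per 100 kb, below the genome's 4.84 in replicate 1 and above its 2.55 in replicate 2. The flank before Cd28 held 2 and 1, as did the flank after Icos, which is 4 and 2 per 100 kb and so below the genome's value in both libraries. Of the 30 sites called in replicate 1 alone, 17 lay between Cd28 and Ctla4 and 8 in Cd28. The segments where the counts of the 2 libraries differed most were therefore these, while Ctla4 and Icos had nearly equal counts.

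**Figure D2:**
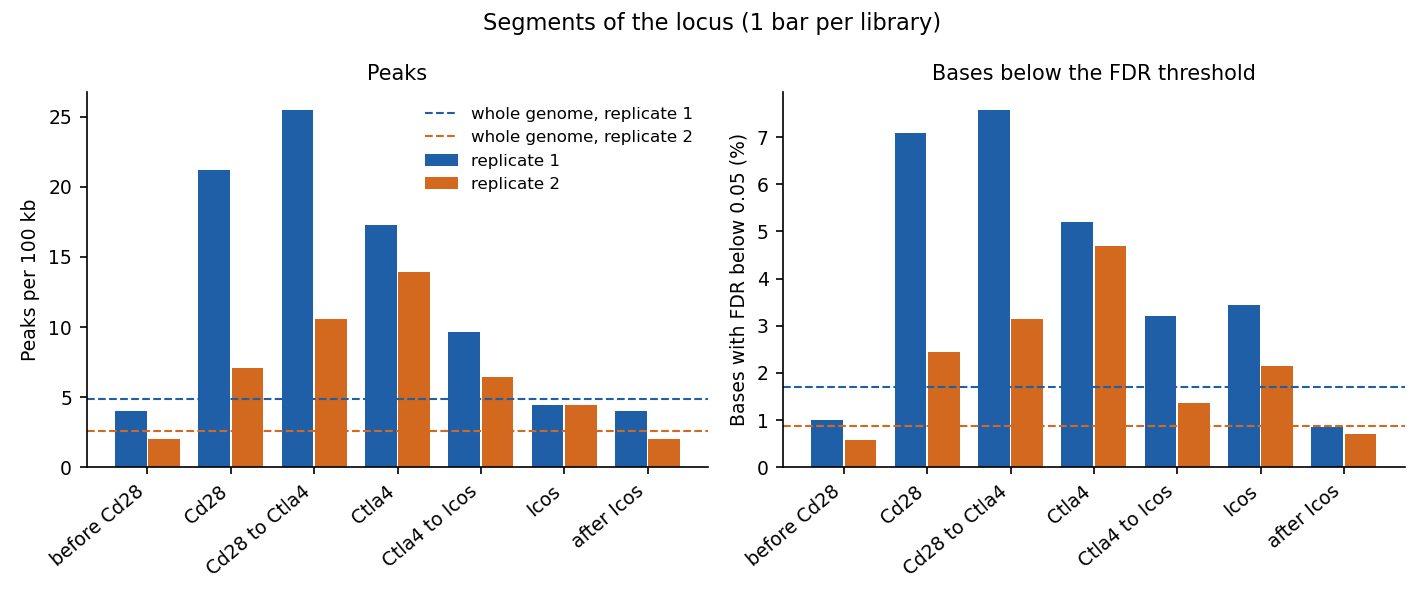
Peaks per 100 kb (left) and percent of bases with a false discovery rate below 0.05 (right) in 7 consecutive segments of the locus, with 1 bar per library and dashed lines at each library's value over the genome. The interval from Cd28 to Ctla4 has the highest peak rate in replicate 1 (25.5), Ctla4 has the highest in replicate 2 (13.9), and both flanks lie below the dashed lines.

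The base-level calls followed the peaks. Bases with a false discovery rate below 0.05 numbered 17808 in replicate 1 and 8275 in replicate 2, a mean of 13042 ± 6741 (SD, n = 2). They made up 4.64% and 2.16% of the locus, against 1.44% and 0.744% of chromosome 1. By segment the share was highest between Cd28 and Ctla4 in replicate 1 (7.58%) and in Ctla4 in replicate 2 (4.69%). In the Icos gene model it was 3.45% and 2.14%, above the genome's 1.7% and 0.879% although that model held a single peak in each library. At a false discovery rate of 0.001 or less, 10650 and 5762 bases remained.

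At the 5′ end of the gene model, 1 of the 3 members, Icos, had a peak within 1 kb in each library. Over all protein-coding genes the share with such a peak was 62.2% in replicate 1 and 55.6% in replicate 2. With every annotated transcript start counted, 3 of 3 members had a peak in both libraries, against 67.0% and 60.2% of all genes. The difference lies in the non-coding first starts of Cd28 and Ctla4, which had no peak within 1 kb. A count over 3 genes is a description, and most genes had a promoter peak.

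Cd28 had the densest promoter site of the 3 genes. Site 5 (chr1:60746301-60746500), over the first exon, had a density of 8.13 in replicate 1 and 7.06 in replicate 2, a mean of 7.59 ± 0.757 (SD, n = 2). These densities were at percentiles 91.6 and 90.2 of all peaks in the respective lists, a percentile being the share of peaks of equal or lower density. The Icos promoter site, site 54 (chr1:60977741-60978000), had 4.729 and 4.007, a mean of 4.37 ± 0.511, at percentiles 86 and 83. The Ctla4 promoter site, site 45 (chr1:60908921-60909220), had 1.566 and 1.284, a mean of 1.42 ± 0.2, at percentiles 67 and 60.4. The order Cd28, Icos, Ctla4 was the same in both libraries, and the values of the 3 genes did not overlap. Promoter density thus ranked differently from the number of nearby sites, where Icos was last.

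Counted over the gene model and 10 kb on each side, Cd28 had 24 peaks in replicate 1 and 7 in replicate 2, a mean of 15.5 ± 12 (SD, n = 2). Ctla4 had 8 and 7, a mean of 7.5 ± 0.707, and Icos had 2 in each. Of all protein-coding genes, 97.2% and 85.4% had fewer than Cd28, 72.5% and 85.4% fewer than Ctla4, and 25.1% and 40% fewer than Icos. Cd28 and Ctla4 were equal in replicate 2, so their order was not the same in both libraries, and Icos was lowest in both. These counts are not corrected for gene length, and the Cd28 model is the longest of the 3 at 56560 bp.

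The genes whose 4 percentile ranks (nearby peaks and densest promoter peak at the model start, in each library) were nearest to each member, among genes of 0.5 to 2 times its length, differed by member. Likeness was the Euclidean distance between the ranks. For Cd28, among 5880 such genes, they were Vdr, Bcas1 and Pstpip2, with 20, 19 and 18 peaks in replicate 1, 7 each in replicate 2 and no promoter peak, at distances of 1.65, 2.14 and 2.7. For Ctla4, among 7587, they were Fam83f with 8 and 7 peaks, then Mybpc2 and Serhl with 8 in each library, at distances of 0, 3 and 3. For Icos, among 7910, they were Htatsf1, Vma21 and Mcts1, each with 2 peaks in each library, at distances of 0.115, 2.21 and 3.48. Htatsf1 had a promoter density of 4.7 and 4.03, against 4.729 and 4.007 at Icos. With any transcript start counted, a choice made after seeing the data, Agpat4, Cpm and Gm28053 were nearest to Cd28 and Cd48, Slc30a3 and Kcng3 to Ctla4, while the 3 nearest to Icos were the same.

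Outside the promoters, dense sites lay in the non-coding genes after Cd28, in introns of Cd28 and Ctla4 and in intergenic DNA. Site 19 in Gm11579 had a density of 3.491 in replicate 1 and 7.252 in replicate 2, where it was the densest of the locus, at percentiles 81.9 and 90.5. Site 26, also within the pair of non-coding genes, had 5.046 and 6.946, at percentiles 86.8 and 90. Both had the higher percentile in replicate 2, whereas 20 of 27 shared sites had a higher percentile in replicate 1. A higher percentile in replicate 1 was also the usual direction over the genome. There the quartiles of replicate 1 minus replicate 2 were 3.44 and 22.2 points in 56893 shared peaks without a CTCF match (described below). Percentiles are ranks within lists of 127552 and 67270 peaks, of which 46.9% and 88.8% were shared. Unshared peaks had lower median densities (0.439 and 0.258) than shared ones (2.26 and 1.08). A shared site can therefore rank higher in the longer list of replicate 1 without a difference in signal. In intron 1 of Cd28, site 13 had 2.513 and 3.509, and the neighbouring intronic site 11 (chr1:60755501-60755700) had 1.952 and 2.711. In Ctla4, intronic site 46 had 3.343 and 3.911, above the Ctla4 promoter site in both libraries, and intronic site 48 (chr1:60911661-60911880) had 0.9998 and 0.8457. Just past the end of Ctla4, site 49 (chr1:60916621-60916800) had 2.449 and 2.465, at percentiles 76.1 and 75.1. Within each library sites 46 and 49 were denser than the Ctla4 promoter site.

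The densest site of replicate 1, site 35, had 11.59 there and 2.285 in replicate 2, or percentiles 94.3 and 73.6. It lies 76.77 kb after the coding Cd28 start, and its rank in replicate 2 was 9 of 27. Besides site 35, the 5 densest peaks of replicate 1 were at sites 5, 26, 54 and 53. In replicate 2 they were at sites 19, 5, 26, 54 and 46, so sites 5, 26 and 54 were among the 5 in both libraries. In the densest decile of the whole list lay 2 of the 57 peaks of replicate 1 and 3 of the 27 of replicate 2.

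The remaining shared sites spanned a wide range of densities. Around Cd28, site 2 (chr1:60702741-60702960) in the upstream flank had 0.7882 and 0.7917, and site 4 (chr1:60745741-60745960), 0.51 kb before the coding start, had 1.01 and 0.6238. Between Cd28 and Ctla4, sites 23, 28, 32, 33, 36, 42 and 43 had densities from 0.7035 to 2.433 in replicate 1 and from 0.5698 to 2.009 in replicate 2. Site 44 (chr1:60907581-60907800), before the coding Ctla4 start, had 1.613 and 1.805. Site 50 (chr1:60941121-60941300), between Ctla4 and Icos, had 0.8834 and 0.4978. Site 55 (chr1:60990361-60990600), the only peak inside Icos, lies in intron 1 and had 1.534 and 0.8817. Site 56 (chr1:61016801-61017000) after Icos had 0.8992 and 1.158.

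**Figure D3:**
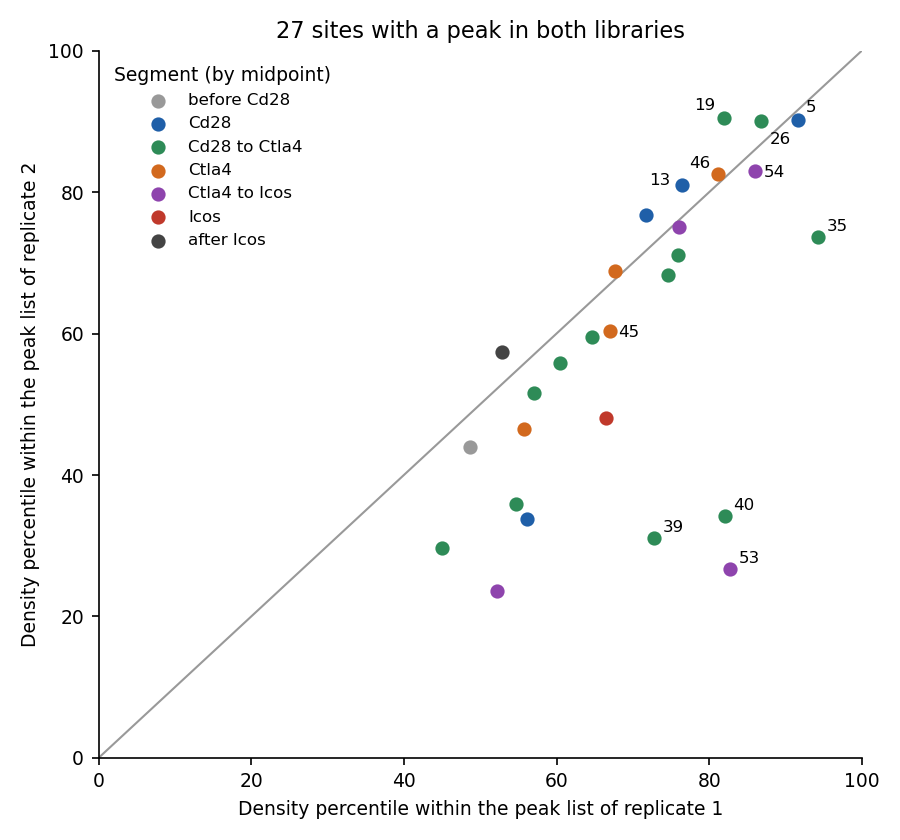
Density percentile of each of the 27 shared sites within the peak list of replicate 1 (horizontal) and of replicate 2 (vertical), coloured by segment, with the line of equality. Site 5 at the Cd28 promoter is near the line at 91.6 and 90.2, and sites 53, 40 and 39 lie far below it.

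The 3 sites with the widest gaps were all higher in replicate 1. Site 53 (chr1:60961191-60961360) had 3.729 in replicate 1 and 0.5338 in replicate 2, a gap of 56.1 percentile points. Site 40 (chr1:60868513-60868680) had 3.549 and 0.6298, a gap of 47.9, and site 39 (chr1:60860681-60860880) had 2.052 and 0.5878, a gap of 41.7. A gap of at least 40 points in this direction was found in 3 of 27 pairs here and in 9.63% of 59819 pairs over the genome, so the share in the locus was near the background. The opposite gap occurred in 2 pairs over the genome. Both counts depend on the unlike lengths of the 2 peak lists. Site 40 carries an exact match to the consensus of CTCF, a zinc finger protein that holds chromatin loops at their bases, shown in capitals within chr1:60868602-60868633 (plus strand).
site 40: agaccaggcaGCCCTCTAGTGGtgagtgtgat
All 12 bases of that match were in a footprint in replicate 1 and 6 of them in replicate 2. Over the genome, shared peaks with an exact CTCF match had a median gap of 40.9 points (n = 2926) and those without one 11 points (n = 56893). The part of CTCF in the gaps of the locus was not tested. Site 39 was 1 mismatch away from the consensus, and sites 53 and 35 were 2 away. Bases of the nearest stretch in a footprint numbered 12 and 7 at site 39, and 12 and 11 at site 53. At site 35 they numbered 12 and 12. Shared sites 2, 46 and 55 were also 2 away, with gaps (replicate 1 minus replicate 2) of 4.7, -1.4 and 18.5 points. Their nearest stretches had 9, 0 and 0 bases in a footprint of replicate 1 and 0 in replicate 2. Nearest stretches with more mismatches also lay in footprints, at sites with small gaps. Sites 48 and 54, 3 mismatches away, had 12 and 12 bases each, with gaps of 9.3 and 3 points. Site 49, 4 away, had 12 and 9, with a gap of 1. A stretch with up to 1 mismatch was found in 2 of 27 shared sites and in 20.2% and 13.4% of all peaks. A stretch with up to 2 mismatches was found in 7 of 27 shared sites and in 42.8% and 35.9% of all peaks, so such near matches were common. These looser matches were chosen after seeing the data. The 2 other exact matches, at sites 3 and 37, were in sites called in replicate 1 alone, with 2 and 0 bases of the match in a footprint of that library and 0 in one of replicate 2. Exact matches were thus in 5.26% and 3.7% of sites, against 5.47% and 4.25% of all peaks.

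Footprints numbered 148 in replicate 1 and 83 in replicate 2, a mean of 116 ± 46 (SD, n = 2), or 2.79 and 2.8 times the genome's rate per 100 kb. Of these, 93.2% and 92.8% touched a peak, against 82.8% and 83.3% over the genome. Footprints that overlapped one of the other library made up 33.8% in replicate 1 and 61.4% in replicate 2, against 35.7% and 67.9% over the genome. The locus therefore had more of its footprints in peaks than the genome had, and its shared shares were slightly lower. Both libraries had a footprint in 26 of the 27 shared sites, and in 24 of these at least 1 base was in a footprint of both.

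At the coding starts, each gene had a footprint that both libraries shared. At Cd28 a footprint of 13 bases from 1 to 13 had identical borders in both libraries, and a further pair overlapped at 68 to 75 in replicate 1 and 65 to 72 in replicate 2. At Icos the shared footprints were upstream of the start. The longest ran from -141 to -117 in replicate 1 and from -140 to -119 in replicate 2, and the next from -76 to -59 and from -73 to -59. At Ctla4 the shared stretch was downstream, from 55 to 78 in replicate 1, where replicate 2 had separate footprints from 57 to 63 and from 74 to 80. The shared footprints of Cd28 and Ctla4 thus lay downstream of the annotated start, and those of Icos upstream.

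**Figure D4:**
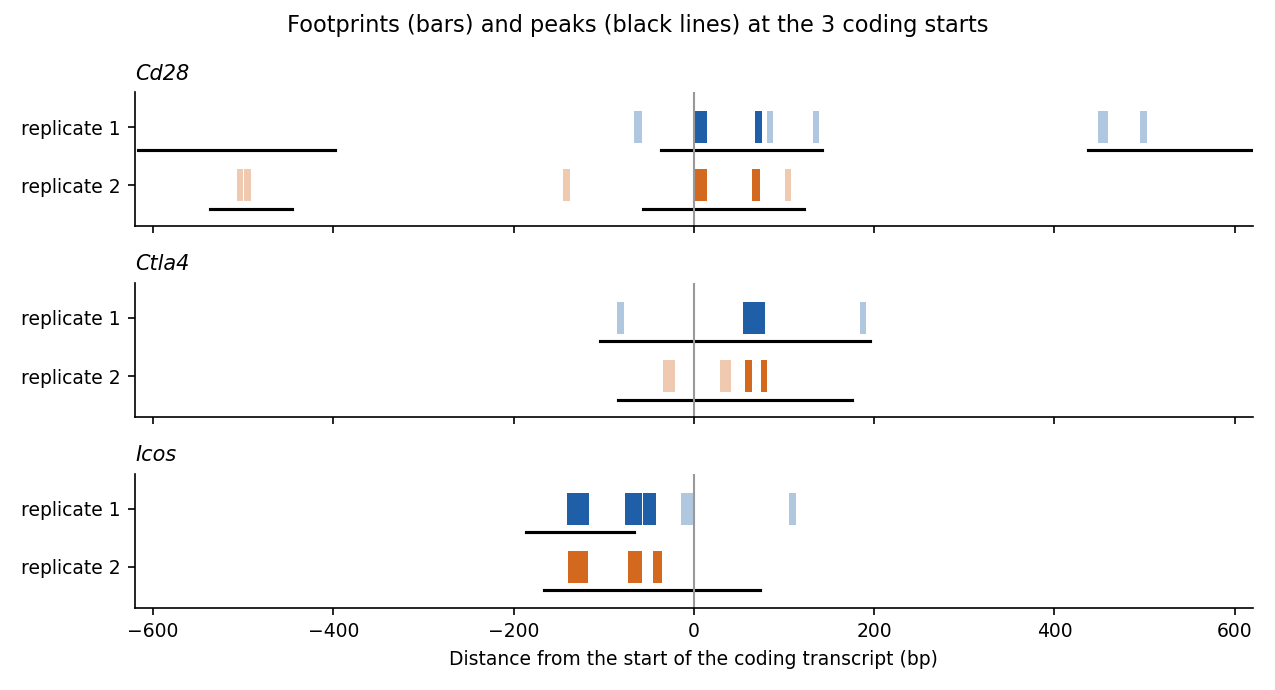
Footprints (coloured bars) and peaks (black lines) of each library around the coding start of each gene, in bp from the start. Dark bars overlap a footprint of the other library and pale bars do not. The Cd28 bar at 1 to 13 is the same in both libraries, the shared Icos bars are left of the start and the shared Ctla4 bars are right of it.

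Short motifs were counted in the 200 bp around each site's midpoint, on both strands, beside the share of all peaks cut in the same way. The RUNX core TGTGGT was found in 36.8% of the replicate 1 sites and 51.9% of the replicate 2 sites, against 19.2% and 19.1% of all peaks. It was in 14 of the 27 shared sites and in 7 of the 30 called in replicate 1 alone. Of its 23 matches, 5 touched a footprint in both libraries, at sites 11, 19, 26, 28 and 53. At site 11 this was by 1 base in each library, and at site 53 the match overlapped the near match to CTCF. The share of matches that touch footprints over all peaks was not counted. Away from all protein-coding transcript starts by over 1 kb, a background chosen after seeing the data, the shares were 36.5% and 52.2% in the locus against 22.3% and 24.2% of peaks. The E-box CACCTG, bound by E proteins, was found in 11 of the 27 shared sites and in 1 of the 30 others, which gave 21.1% and 40.7% against 23.9% and 26.3%. Of its 13 matches, 0 touched a footprint in both libraries. Of the matches to the E-box CAGCTG, 3 of 12 did, and of those to the GATA motif AGATAA, 1 of 6. The shares for these motifs were not tested, and the counts behind them are small.

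NFAT and AP-1 factors act after T cell activation. The NFAT core TGGAAA was in 19.3% and 22.2% of sites against 13.3% and 12%, and the AP-1 motif TGANTCA in 8.77% and 14.8% against 5.97% and 5.53%. AP-1 thus rested on 5 and 4 sites. Site 53 held AP-1 and RUNX matches that touched footprints in both libraries, and site 49 an NFAT match that did. In all, 1 of 5 AP-1 matches, 1 of 11 NFAT matches and 2 of 13 TCF/LEF matches did so. The TCF/LEF core CTTTGA was in 19.3% and 22.2% against 13.1% and 12.8%, with both matches of site 43 (chr1:60882921-60883120) touching footprints in both libraries. The ETS core AGGAAG was in 28.1% and 29.6% against 33.5% and 36.8%. The SP/KLF motif GGGCGG, common at CpG-rich promoters, was in 1.75% and 0% against 17.9% and 24.8%. Away from coding transcript starts it was in 0 of 52 and 0 of 23 sites, against 9.18% and 11.4% of peaks. No match was found for the forkhead motif TGTTTAC or for the CRE motif, which 2.33% and 0.695% of all replicate 1 peaks held. The share with an NF-kB match was 5.26% and 3.7% against 3.64% and 4.18%.

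**Figure D5:**
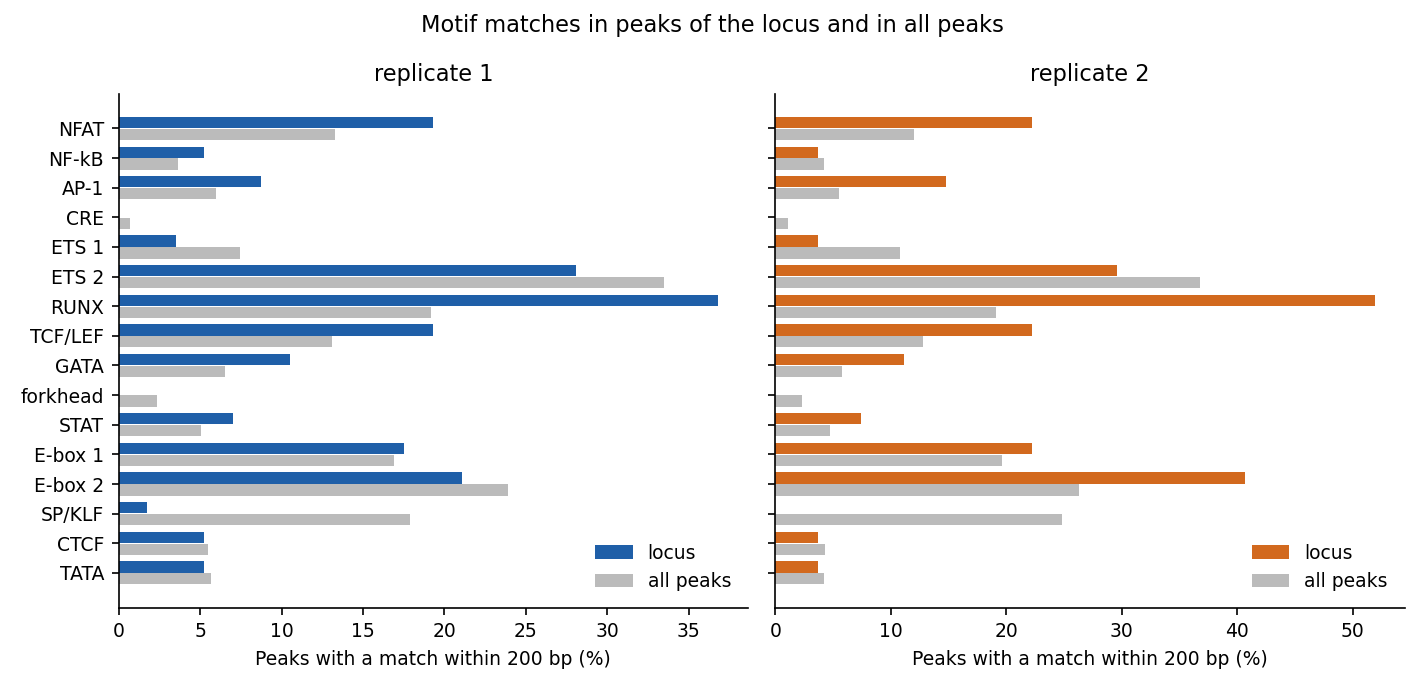
Percent of peaks with a match to each motif in the 200 bp around the midpoint, in the locus (coloured) and in all peaks of the library (grey), for replicate 1 (left) and replicate 2 (right). ETS 1 and 2 are CCGGAA and AGGAAG, and E-box 1 and 2 are CAGCTG and CACCTG; RUNX is at 36.8% and 51.9% against 19.2% and 19.1%, and SP/KLF at 1.75% and 0% against 17.9% and 24.8%.

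Of the 5 B7 family ligand genes, whose products these receptors or their relatives bind, 3 had a promoter peak in replicate 1 and 2 in replicate 2, where all genes were at 62.2% and 55.6%. Cd80 and Pdcd1lg2 had none, and Cd86 had one in replicate 1 alone, at a density of 0.413. Icosl, the ligand gene of ICOS, had 3.12 and 0.942. Cd274, which encodes PD-L1, was the densest, with 14.1 and 9.69.

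Among 10 other co-receptor genes, 9 had a promoter peak in replicate 1 and 8 in replicate 2, beside the same 62.2% and 55.6% of all genes. Havcr2, which encodes TIM-3, had none, and Tnfrsf4, the gene of OX40, had one in replicate 1 alone. Tnfrsf9, the gene of 4-1BB, was densest with 17.4 and 10.9, and Cd27 had 7.1 and 5.68. Pdcd1, the gene of the inhibitory receptor PD-1, had 1.91 and 1.76, close to the values of Ctla4. Tigit had 0.719 and 1.04, below Ctla4 in both libraries.

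Genes listed as signalling partners had a promoter peak at the model start in 12 of 13 cases in each library, against 62.2% and 55.6% of all genes. Bcl10 was the exception, and with any transcript start it had 34.8 and 24.1, which gave 13 of 13. Ppp2ca, the catalytic subunit of the phosphatase PP2A, was densest at the model start by mean percentile, with 29.3 and 26.2. Pik3r1, the regulatory subunit of phosphoinositide 3-kinase, had 29.1 and 14, and Grb2, an adaptor, 32 and 17.9. Lck, the kinase that starts T cell receptor signalling, had 11.2 and 12.4. Prkcq, which encodes protein kinase C theta, had 3.94 and 1.84.

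Of 9 downstream or regulating factors, 9 had a promoter peak in replicate 1 and 8 in replicate 2, beside 62.2% and 55.6% of all genes. Nfatc2 was the one missing in replicate 2, and with any transcript start it had 5.15 and 3.24. Foxp3, the factor that defines regulatory T cells, was densest at the model start by mean percentile, with 18 and 15.7. Rc3h1, which encodes Roquin-1, a repressor of Icos mRNA, had 33 and 9.4. These densities exceeded those at Cd28, Icos and Ctla4 for Foxp3 and Rc3h1 in both libraries. Any peak within 1 kb of the model start was counted, and whether it belongs to the start of a neighbouring gene was not examined.

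T cell markers were open in this tissue. Peaks at the model start were found for 10 of 10 T cell markers in both libraries, against 62.2% and 55.6% of all genes. The densities ran from 3.09 to 17.4 in replicate 1 and from 2.45 to 16.9 in replicate 2. Of 6 markers of mature and regulatory T cells, 6 and 5 had such a peak, Il2ra in replicate 1 alone. Of other lists the counts were 2 and 2 of 5 for myeloid and dendritic cells and 2 and 1 of 5 for thymic epithelium. Of stroma and endothelium 3 and 2 of 4 had one, and of liver 0 of 2, beside the same 62.2% and 55.6% of all genes. In these lists, Csf1r, Adgre1, Itgax, Foxn1, Krt8, Psmb11, Cdh5, Alb and Apoa1 had none at the model start in either library. Itgam had 2.21 and 1.34, Lyz2 0.54 and 0.498, and Epcam 0.815 and 0.792. Krt5 and Pdgfra had one in replicate 1 alone. With any transcript start counted, stroma and endothelium had 3 and 4 of 4, and myeloid and dendritic cells 3 and 2 of 5. Thymic epithelium stayed at 2 and 1 of 5, beside 67.0% and 60.2% of all genes. Pdgfra then had 5.31 and 1.32, and Cdh5 had 0.408 in replicate 2 alone. Col1a1 had 5.74 in replicate 1 and 1.01 in replicate 2, and Pecam1 had 4.05 and 4.59. The part of other cells in the sites of the locus was not tested.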

How the data were processed

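DNase-seq of B6CASTF1/J thymus was analysed in 2 libraries, from files the authors deposited for each library on mm10. Their labels number the females separately but carry the same donor identifier. Whether the libraries come from different animals is therefore not settled, and each SD (n = 2) is a spread between libraries. Aligner and peak caller: not given in the sources used here. There were 2 peak lists per library, and the longer was used. Peak densities are a signal value the authors deposited, with a scaling that is not stated, so percentiles within a list are given beside them. Percentiles in turn depend on the length of the list, 127552 peaks in replicate 1 and 67270 in replicate 2. A mean ± SD of densities takes both libraries to be on the same scale, which could not be checked. The false discovery rate per base is a q-value as deposited, and was counted below 0.05 and at 0.001 or less. The deposited footprint files carry the same score in every line, so only positions were used. Read depth is unknown from these files.

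Peaks were assigned by overlap of 1 bp or more with the window, and to segments by midpoint. Promoters were 1 kb on either side of a start in GENCODE M21. Motif windows were 200 bp. Named sites are all shared peaks and the 5 densest per library, and named genes follow lists of ligands, co-receptors, signalling partners and factors. The members and lists were chosen with earlier results of these data known. Python 3.11.15, numpy 2.4.6 and pandas 2.3.3 were used. Overlap counts were checked against bedtools 2.31.1 on simulated data, and motif search on planted motifs. With 1 group of 2 libraries no test was made, and values are given per library and as mean ± SD (n = 2). The result of 1 marker list is not reported here. Alternatives were other lists, thresholds, flanks and gene starts.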

Additional observations from a re-analysis of the deposited data

How the results depend on the processing

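Of the alternatives tried, 21 values stayed within 1.5 times the value given (counts) or within 1 SD (the ratio), and 10 moved. With the denser 50% of peaks the locus held 25 peaks in place of 42 and 17 shared peaks in place of 27, and its ratio to the genome was 3.5 in place of 2.91. With 10 kb flanks the ratio was 3.42, and with chromosome 1 as reference 3.32. With any transcript start 3 members had a promoter peak in place of 1, and with the main coding start, added after seeing the data, also 3. With a false discovery rate of at most 0.001 the count of bases was 8206 in place of 13042. Leaving out 1 library gave 27 to 57 peaks, 8275 to 17808 bases, 83 to 148 footprints, 1 member with a promoter peak and a ratio of 2.76 to 3.07. The peak count and base count without replicate 1 were the ones that moved. The shared count needs both libraries and has no such value. In the shorter peak list, 20 of the 27 shared sites were found in both libraries. Sites 53, 40 and 39 were not among them. The cause of these shifts was not tested. No paired analysis was possible because there is 1 group and no test. Read depth is unknown, and 30 sites rest on replicate 1 alone.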

Other observations

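Beyond the end of the locus, 4.94 kb after its last base, a peak at chr1:61055261-61055440 had a density of 3.84 in replicate 1 and 0.4499 in the overlapping peak of replicate 2. These are percentiles 83.3 and 19, a wider gap than at sites 53, 40 and 39 inside the locus. Measured from 50 kb before the coding Cd28 start, a window chosen after seeing the data, the locus spans 354.0 kb and held 56 peaks in replicate 1 and 27 in replicate 2.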
